A study of Mus musculus with 48 samples.

Results

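Lymphatic endothelial cells (LECs) of the mouse diaphragm, sorted from animals given angiotensin II together with VEGFCc156s (angII+VEGFC), were compared with the same cells from control animals (ctrl). The comparison rests on 3 angII+VEGFC and 4 ctrl libraries, 7 of the 48 libraries in the series, chosen by their tissue, cell type and treatment labels and not by any measured value. All mice carried Prox1-eGFP, a reporter knocked into the Prox1 locus of 1 line on a C57BL/6 background by label, and were male. They wore a subcutaneous minipump that released human angiotensin II and recombinant human VEGF-C with the Cys156Ser change in the angII+VEGFC group, and saline with bovine serum albumin in the ctrl group, and cells were isolated 5 to 6 weeks after implantation. The ctrl mice, numbered 1, 5, 9 and 11, were 9, 8, 16 and 16 months old by label, and the angII+VEGFC mice, numbered 2, 6 and 8, were 15, 8 and 8 months old. Sequencing batch 1 held ctrl mice 1 and 9 and angII+VEGFC mouse 6, and batch 2 held ctrl mice 5 and 11 and angII+VEGFC mice 2 and 8. The 5 diaphragm LEC libraries of mice given angiotensin II alone (angII, with bovine serum albumin) entered the same model. The spread was thus estimated over 12 libraries. These angII mice, numbered 3, 4, 14, 15 and 18, were 8, 8, 14, 14 and 16 months old by label. Mice 3, 4 and 14 were in batch 1 and mice 15 and 18 in batch 2. The heart LEC libraries of the same 7 ctrl and angII+VEGFC mice were used for the comparison between tissues. Its model also held heart LEC libraries of angII mice 3, 12, 14, 15 and 18. Mouse 12 was 16 months old and in batch 1. Live cells that lacked the leukocyte antigen CD45.2 and carried CD31 and eGFP were sorted, so the reporter itself selected cells that express Prox1, and no arm with VEGFCc156s alone was analysed here.

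LECs line the lymphatic capillaries and collecting vessels, which drain fluid, lipids and immune cells from the tissue. Their identity is held by the transcription factor Prox1, and their growth is driven by the ligands VEGF-C and VEGF-D through the receptor VEGFR3, which Flt4 encodes, with Nrp2 as a co-receptor. VEGFCc156s is a form of VEGF-C that binds VEGFR3 and not VEGFR2. Angiotensin II is the effector hormone of the renin-angiotensin system and raises blood pressure through its AT1 receptor. The diaphragm carries a dense lymphatic network that takes up fluid from the peritoneal cavity, and in this study it is a lymphatic bed outside the heart exposed to the same circulating agents.

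The libraries carried the identity their labels gave. TPM gives a gene's share of the transcripts in a library after a correction for gene length, so levels of different genes can be compared within these data. Prox1 was at 232 ± 34.97 TPM (SD, n = 4) in ctrl and 254 ± 54.9 TPM (SD, n = 3) in angII+VEGFC. The hyaluronan receptor Lyve1 was at 3807 ± 438 TPM in ctrl and 4241 ± 799 TPM in angII+VEGFC, and Ccl21a, the chemokine that draws dendritic cells into lymphatics, was the marker with the highest level at 31174 ± 2032 TPM in ctrl. Genes detected at 1 TPM or above numbered from 12924 to 18116 in ctrl and 14963 to 18373 in angII+VEGFC (two-sided exact permutation test, p = 0.8). Ctrl mouse 5 had the fewest genes of the 7 libraries. Ctrl mouse 9 carried the highest summed TPM of the fibroblast markers (2539, against 384 to 700 in the other ctrl mice), the lymphocyte markers (395 against 7.28 to 36.6) and the pericyte and smooth muscle markers (853 against 89.3 to 136). Values without these mice are given beside several of the results that moved when they were left out. The rule on small p values named 12 higher and 12 lower genes. Without both mice, 9 of the higher and 5 of the lower genes kept an unadjusted limma p under 0.05. All kept their sign, which the rule nearly fixed in advance because it required no overlap between groups.

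No gene differed between angII+VEGFC and ctrl at the adjusted threshold. Of 23839 genes tested with limma, 0 (0%) had a Benjamini-Hochberg adjusted p under 0.05, and the smallest adjusted p was 0.999973. At an unadjusted p under 0.05 stood 314 genes (1.32%), of which 221 (0.927%) were higher and 93 (0.39%) lower in angII+VEGFC. Where no gene differs, 5% of p values are expected under 0.05 by definition, so the share of 1.32% lay below that level. The 3 angII+VEGFC libraries lay above all 4 ctrl libraries for 606 genes (2.54%) and below them for 429 genes (1.8%). The median log2 fold change over all genes was 0.05. In the same model angII against ctrl, which shares the ctrl libraries, also gave 0 genes at the adjusted threshold and 3651 genes (15.3%) at an unadjusted p under 0.05. The median log2 fold change of angII against ctrl was 0.28. The 5 angII libraries held 20062 to 23691 genes at 1 TPM or above, more than any ctrl or angII+VEGFC library. The part of this gap in the 15.3% was not tested.

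**Figure D1:**
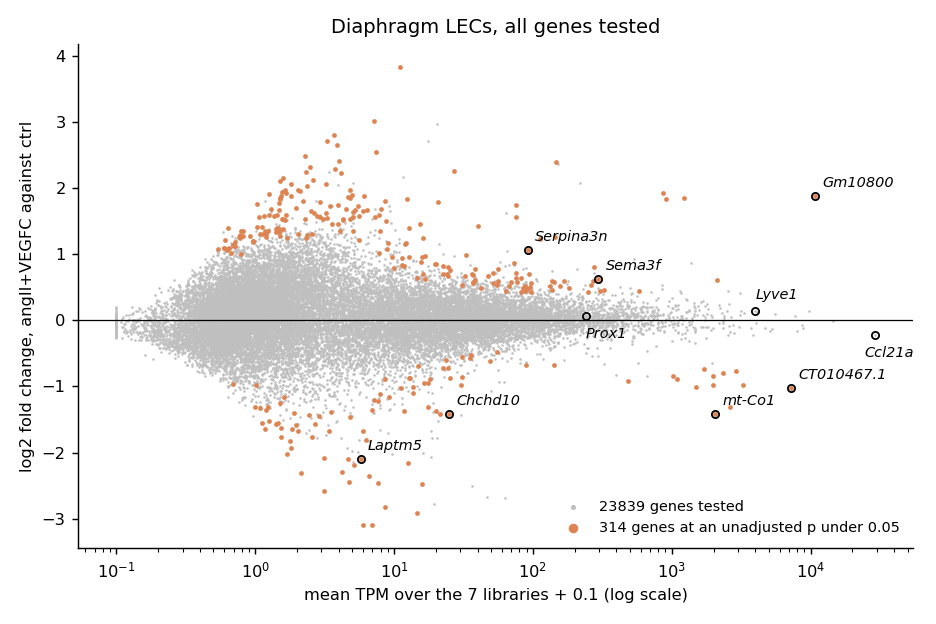
Log2 fold change of angII+VEGFC against ctrl in diaphragm LECs (vertical axis) against the mean TPM over the 7 libraries plus 0.1 (horizontal axis, log scale), 1 point a gene. Of 23839 genes tested in grey, the 314 at an unadjusted p under 0.05 are orange, and none had an adjusted p under 0.05.

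The size of change that this comparison could have shown depends on the spread, which was estimated over all 12 diaphragm LEC libraries. Among the 9933 genes that averaged 5 TPM or above, the median standard error of the log2 fold change was 0.33 and the median half-width of its 95% interval was 0.71. The interval lay within 1 log2 unit of 0 for 5765 of these genes (58.0%), so that a doubling or a halving was outside the interval for them. For the remaining genes the interval reached beyond 1 log2 unit on at least 1 side. The median absolute log2 fold change was 0.17, and 158 genes had an estimate beyond 1 log2 unit.

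The genes of lymphatic identity were close to ctrl. Of 21 identity genes tested, 14 were higher and 7 lower by sign, the median log2 fold change was 0.12 against 0.05 over all genes, and 0 had an unadjusted p under 0.05. Without ctrl mice 5 and 9 the median was -0.14, with -0.10 over all genes. Prox1 read 257, 225, 185 and 259 TPM in ctrl mice 1, 5, 9 and 11 and 239, 208 and 315 TPM in angII+VEGFC mice 2, 6 and 8. The groups overlapped, and the log2 fold change of 0.06 had a 95% interval of -0.35 to 0.47. Lyve1 read 4039, 4050, 3150 and 3986 TPM in ctrl and 5161, 3850 and 3713 TPM in angII+VEGFC, a log2 fold change of 0.14 with an interval of -0.22 to 0.49. Both intervals leave out a doubling. Pdpn, which encodes the surface glycoprotein podoplanin, had a log2 fold change of 0.35 (-0.20 to 0.89). Ccl21a read 33980, 31167, 29230 and 30319 TPM in ctrl and 27534, 26155 and 25098 TPM in angII+VEGFC. All 3 angII+VEGFC libraries lay below all ctrl libraries, but the fitted log2 fold change of -0.23 had a standard error of 0.24, and it stood at 0.03 after quantile normalization.

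**Figure D2:**
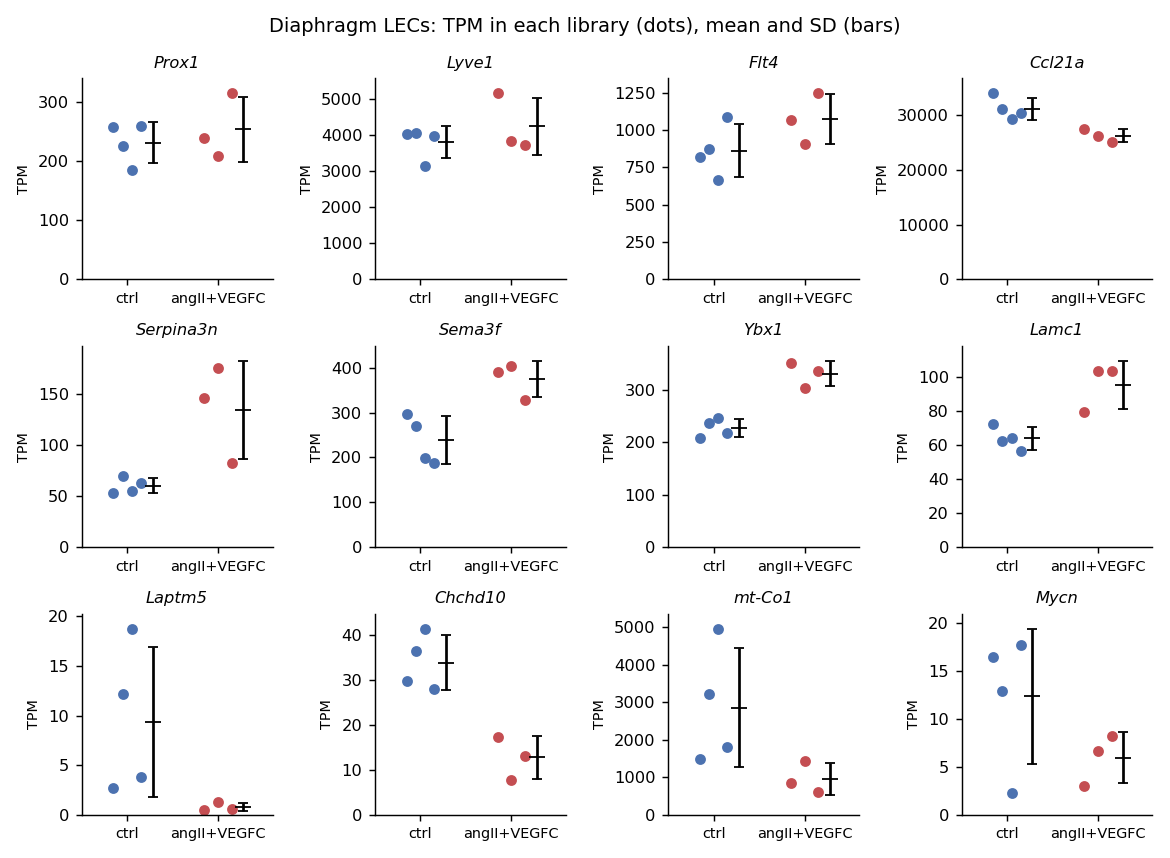
TPM of 12 genes in each diaphragm LEC library (vertical axes, TPM), ctrl in blue (4 libraries) and angII+VEGFC in red (3 libraries), with the mean and SD of each group in black. Prox1, Lyve1 and Flt4 overlap between groups, whereas Serpina3n, Sema3f, Ybx1 and Lamc1 lie higher and Ccl21a, Laptm5, Chchd10 and mt-Co1 lie lower in every angII+VEGFC library.

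The receptors and ligands of the VEGF family did not pass any threshold either. Flt4 read 822, 875, 664 and 1091 TPM in ctrl and 1065, 908 and 1247 TPM in angII+VEGFC, with a log2 fold change of 0.29 (95% interval -0.08 to 0.65). Kdr, which encodes VEGFR2, had a log2 fold change of 0.23 (-0.14 to 0.59), and Nrp2 one of 0.29 (-0.26 to 0.84). All 3 receptor estimates were above 0 and none of their intervals left 0 out. The ligands were scarce in the LECs themselves, with Vegfc at 0.428 to 6.14 TPM and Vegfd at 0.401 to 1.46 TPM in ctrl. The intervals of Vegfc (-1.77 to 1.64) and Vegfd (-1.04 to 1.23) were too wide to bound a change. These transcript levels do not include the infused human protein. Across the 15 VEGF ligands, receptors and co-factors tested, 9 were higher and 6 lower by sign with a median log2 fold change of 0.11, which turned to -0.03 after quantile normalization.

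Genes downstream of VEGFR3 and the ERK feedback genes stood close to ctrl as a list. Of 31 genes tested, 21 were higher by sign with a median log2 fold change of 0.14. Among the immediate targets of growth factor signalling, Dusp6 had a log2 fold change of -0.32, Egr1 of -0.22 and Spry1 of -0.22, each with an unadjusted p above 0.05. Cell cycle genes were balanced, with 19 higher and 18 lower of 37 and a median of 0.01. The proliferation marker Mki67 was at 0.772 TPM in ctrl and 0.562 TPM in angII+VEGFC on average.

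The lymphatic valve and flow genes held 2 of the 13 pathway genes at an unadjusted p under 0.05. Over all 25 pathway lists 699 distinct genes were tested, and 1.86% of them stood at that limit, close to the 1.32% of all genes. Klf4, a transcription factor induced by shear stress, read 204, 271, 177 and 208 TPM in ctrl and 278, 310 and 311 TPM in angII+VEGFC. Its log2 fold change was 0.43 ± 0.19 (SE), and the 3 angII+VEGFC libraries lay above all ctrl libraries. Piezo1, the mechanically gated ion channel, read 36.8 to 42.4 TPM in ctrl and 42.4, 61.3 and 94.3 TPM in angII+VEGFC, with a log2 fold change of 0.57 ± 0.26 (SE). Of the treated mice, mouse 8 had the highest Piezo1 level and mouse 2 lay within the ctrl range. Klf2, a second shear-responsive factor, and Foxc2, a valve regulator, each had a log2 fold change of 0.32 with overlapping groups. The list of 29 genes had a median of 0.14, and its median was between 0.12 and 0.23 when each library was left out in turn. The single genes were less stable. In the 7 fits with 1 library left out, the unadjusted limma p stayed under 0.05 in 2 for Klf4 and in 1 for Piezo1. Without ctrl mouse 9, 0 genes of the list stood at that limit.

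The genes with the smallest p values among those higher in angII+VEGFC covered secreted proteins, matrix and regulators. Serpina3n, a secreted serine protease inhibitor of the acute phase response (chr12:104406729-104414329, GRCm38), read 52.8, 69.5, 55.4 and 63.0 TPM in ctrl and 146, 176 and 82.1 TPM in angII+VEGFC. The ctrl libraries lay within a narrow range, and the log2 fold change was 1.06 ± 0.34 (SE). Within batches its log2 difference was 1.68 in batch 1 and 0.72 in batch 2. The rule that the groups not overlap fixed this sign in advance. Sema3f, a class 3 semaphorin that signals through Nrp2, read 297, 271, 198 and 187 TPM in ctrl and 391, 404 and 329 TPM in angII+VEGFC, a log2 fold change of 0.62 ± 0.20. Ybx1, a DNA- and RNA-binding regulator of translation (chr4:119277981-119294604), read 208, 238, 246 and 219 TPM in ctrl and 353, 305 and 337 TPM in angII+VEGFC. Its log2 fold change of 0.59 ± 0.20 had an unadjusted limma p of 0.0093, and the unadjusted p stayed under 0.05 whichever of the 7 libraries was left out. Since Ybx1 was named by its p in the same libraries, these fits are no separate support. Npr2, the receptor for C-type natriuretic peptide, read 60.3, 36.0, 41.5 and 38.5 TPM in ctrl and 74.7, 76.0 and 63.2 TPM in angII+VEGFC, a log2 fold change of 0.78 ± 0.27. Lamc1, the laminin gamma chain of basement membranes, read 56.3 to 72.5 TPM in ctrl and 79.2, 104 and 103 TPM in angII+VEGFC, a log2 fold change of 0.57 ± 0.20.

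The other 7 genes named by the same rule in this direction were Pglyrp1 (log2 fold change 0.60), a secreted peptidoglycan-binding protein, Pi4kb (0.96), a phosphatidylinositol kinase of the Golgi, the AP-1 subunit Fosb (0.81), Synj2bp (0.78), a protein of the outer mitochondrial membrane, the matrix protein Sned1 (0.58), the corepressor Tle1 (0.57) and Rpl27-ps3 (2.55). Rpl27-ps3 is a processed copy of a ribosomal protein gene and its reads cannot be separated with certainty from those of its parent. It was listed at 0 in 3 of the 4 ctrl libraries. Fosb belongs to the genes that tissue digestion itself can induce. Of the 25 immediate early and dissociation genes 9 were higher and 16 lower by sign, and 2 of them, Fosb and Jund, were higher at an unadjusted p under 0.05, beside 0.927% of all genes. Jund (0.61, and 0.45 without ctrl mouse 5) was named after its value was seen. The summed TPM of the list overlapped between groups, with 41626 to 48547 in ctrl and 38939 to 55168 in angII+VEGFC.

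Matrix genes passed no adjusted threshold, and basement membrane genes were among those at the unadjusted limit. Of 39 matrix, protease and CCN genes, 26 were higher by sign with a median log2 fold change of 0.17, and 3 (Lamc1, Nid1 and Ccn5) were higher at an unadjusted p under 0.05, beside 0.927% of all genes. Without ctrl mice 5 and 9 the limma p of these genes was 0.0625, 0.0955 and 0.0564. Nid1, which links laminin to collagen IV, read 153, 174, 123 and 164 TPM in ctrl and 235, 239 and 192 TPM in angII+VEGFC, without overlap. Ccn5 was set by 1 library, at 28.8 TPM in angII+VEGFC mouse 6 against 4.86 and 0.982 TPM in mice 2 and 8. Tgfb1, the ligand that drives matrix production in many tissues, read 119, 155, 115 and 157 TPM in ctrl and 271, 204 and 151 TPM in angII+VEGFC, with a log2 fold change of 0.60 ± 0.23 (SE). Mouse 8 lay within the ctrl range for Tgfb1. The 21 collagen chains had the highest median of the pathway lists, 0.30, with none at an unadjusted p under 0.05. That median was -0.03 within batch 1 and 0.19 within batch 2. Of the fibroblast markers 13 of 15 were higher by sign with a median of 0.47, which was -0.35 within batch 1, 0.75 within batch 2, 0.99 without ctrl mouse 5, 0.81 without ctrl mouse 9 and between 0.05 and 0.99 with each library left out. Their summed TPM overlapped between groups, at 384 to 2539 in ctrl and 706 to 1155 in angII+VEGFC, and their part in the collagen values was not tested.

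For 2 genes of protein folding, ctrl mouse 5 stood apart from the other ctrl mice. Hspa5, the main chaperone of the endoplasmic reticulum, read 708, 1962, 598 and 722 TPM in ctrl and 2292, 2463 and 937 TPM in angII+VEGFC. Ctrl mouse 5 was as high as the treated mice, and the log2 fold change of 0.86 ± 0.49 (SE) did not pass the unadjusted limit, whereas it was 1.62 with a limma p of 0.00969 without that mouse. Herpud1, a gene of the unfolded protein response, followed the same order, with 80.8, 171, 76.8 and 86.0 TPM in ctrl and 194, 209 and 135 TPM in angII+VEGFC. Hspa5 and Herpud1 were chosen after their values were seen. The list of 24 heat shock and unfolded protein genes had 18 higher by sign and a median of 0.19, which was 0.75 within batch 1 and 0.00 within batch 2.

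**Figure D3:**
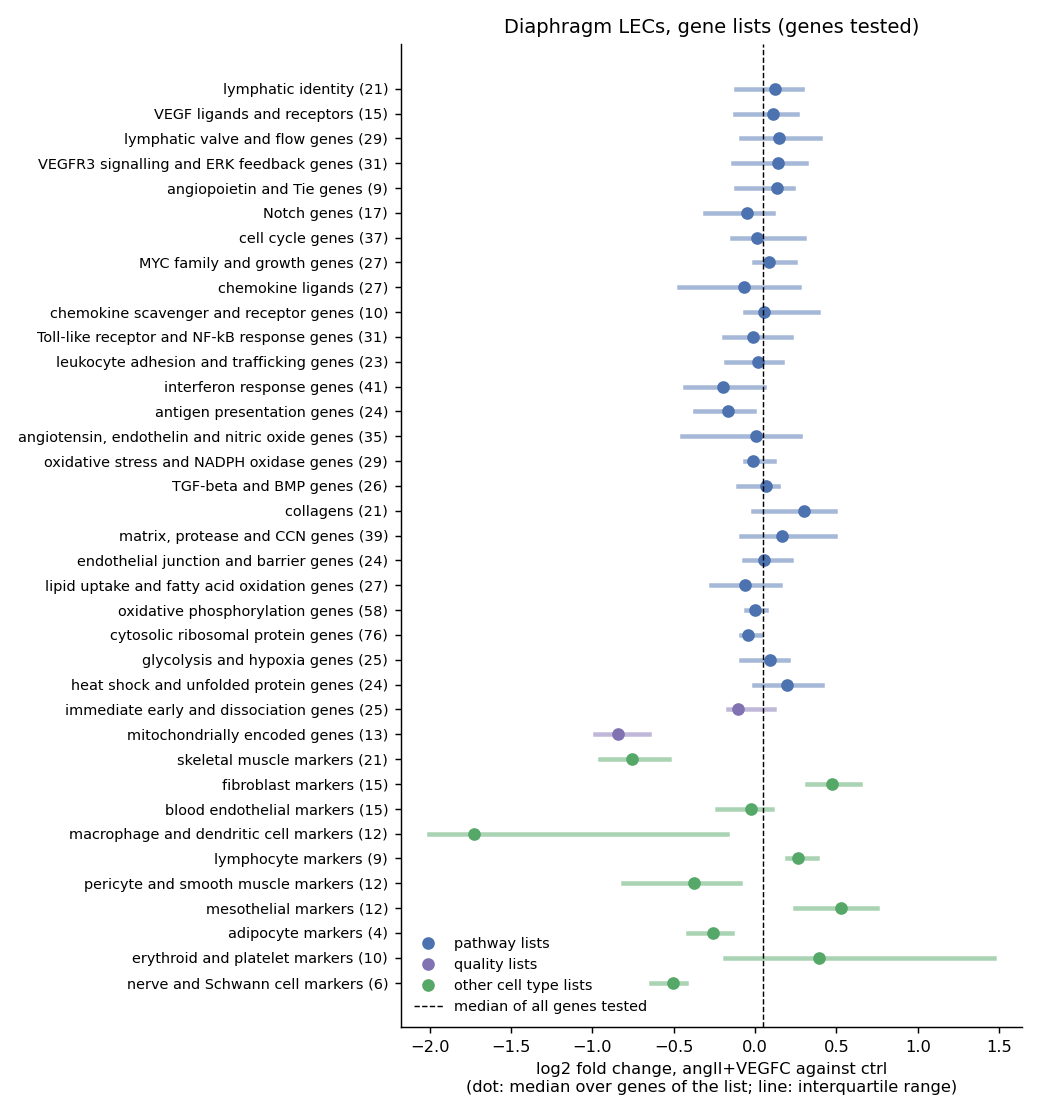
Median log2 fold change of angII+VEGFC against ctrl for each gene list (dots) with the interquartile range of its genes (lines), and the number of genes tested in brackets. Of the 25 pathway lists in blue, 24 have a median within 0.25 of 0, and the mitochondrially encoded genes and the markers of other cell types lie farther out.

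The genes of the angiotensin, endothelin and nitric oxide systems were balanced. Of 35 genes tested 18 were higher and 17 lower by sign, the median was 0.00, and Npr2 alone stood at an unadjusted p under 0.05. Agtr1a, the AT1 receptor, was near or below 1 TPM in the LECs, at 0.0958 to 1.47 TPM in ctrl and 0 to 1.48 TPM in angII+VEGFC. At this level its interval of -1.38 to 1.32 log2 units does not bound a change. Npr1, the receptor for atrial natriuretic peptide, read 14.5 to 22.3 TPM in ctrl and 22.4 to 27.9 TPM in angII+VEGFC, without overlap, with a log2 fold change of 0.39 that did not pass the limit. The mineralocorticoid receptor Nr3c2 had a log2 fold change of 0.34 and the glucocorticoid receptor Nr3c1 one of -0.34.

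With all libraries, most interferon response and antigen presentation genes were lower by sign, and the chemokine ligands had no common direction. Of 41 interferon response genes 30 were lower with a median of -0.20, and of 24 antigen presentation genes 18 were lower with a median of -0.17, but 0 genes of either list had an unadjusted p under 0.05. In each list 5 genes lay below all ctrl libraries, beside 1.8% of all genes. B2m, the light chain of class I molecules, read 1603, 1622, 1928 and 1433 TPM in ctrl and 1264, 1227 and 1204 TPM in angII+VEGFC, a log2 fold change of -0.35 ± 0.18 (SE). Ifit1, an antiviral protein, read 15.8, 24.8, 35.6 and 17.7 TPM in ctrl and 11.4, 12.1 and 9.97 TPM in angII+VEGFC, a log2 fold change of -0.78 ± 0.37. Ctrl mouse 9 was the highest library for both, and B2m and Ifit1 were chosen after their values were seen. The interferon median ranged from -0.25 to 0.05 when each library was left out. It was highest without ctrl mouse 5, where 24 genes of that list were higher and 17 lower by sign. Of the antigen presentation genes, 17 were still lower by sign without that mouse. At an unadjusted limma p under 0.05, however, 4 of them were higher and 0 lower, beside 215 higher of all 23839 genes. Without ctrl mice 5 and 9 these counts were again 4 and 0. Of the 27 chemokine ligands 12 were higher and 15 lower by sign with a median of -0.07, which turned to 0.01 after quantile normalization, 0.04 with the number of genes as covariate, 0.35 without ctrl mouse 5, 0.13 without ctrl mouse 9 and 0.44 without both. At an unadjusted limma p under 0.05, 3 were lower beside 0.39% of all genes, namely Ccl6, Pf4 and Ccl24. Without ctrl mice 5 and 9 none of them was. Instead 3 other ligands were higher and 0 lower at that limit, both without ctrl mouse 5 and without both mice. Over all 23839 genes, 215 and 191 were higher at that limit in these 2 fits. Ccl6 read 4.73, 20.7, 6.42 and 0.281 TPM in ctrl and 0.359, 0 and 0 TPM in angII+VEGFC, and Pf4 read 17.3, 58.0, 27.9 and 14.8 TPM in ctrl and 6.91, 16.5 and 8.30 TPM in angII+VEGFC. Both are products of myeloid cells or platelets in most tissues, and both were highest in ctrl mouse 5. Their log2 fold changes of -2.44 and -1.41 were -0.76 and -0.62 without that mouse.

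Most transcripts of macrophages were also lower by sign. Of the 12 macrophage and dendritic cell markers tested, of 16 listed, 10 were lower by sign with a median log2 fold change of -1.73, and 3 (Laptm5, C1qb and Csf1r) were lower at an unadjusted p under 0.05, beside 0.39% of all genes. Laptm5, a lysosomal membrane protein of blood-derived cells, read 2.66, 12.1, 18.7 and 3.81 TPM in ctrl and 0.495, 1.27 and 0.563 TPM in angII+VEGFC, without overlap. The summed TPM of the list was 96.9, 233, 217 and 74.1 in ctrl and 60.5, 75.7 and 43.8 in angII+VEGFC, so that ctrl mice 5 and 9 were high and the lowest ctrl mouse lay within the treated range. Without ctrl mice 5 and 9 the median of the list was -0.37, 0 of its genes stood at that limit, and the log2 fold change of Laptm5 was -1.02 against -2.09 with all libraries. Without ctrl mouse 5 alone the median was -0.48. Ptprc, which encodes the CD45 antigen that the sort gated against, was at 1.70 to 7.99 TPM in ctrl and 2.00 to 5.24 TPM in angII+VEGFC. The markers Fcgr1, Cx3cr1, Itgax and Aif1 did not pass the filter on low values. In these sorted pools fewer cells of a type and less RNA per cell cannot be told apart, and the part of macrophage transcripts in the chemokine values was not tested. The skeletal muscle markers, from the tissue around the vessels, had a negative median with all libraries (-0.75, with 17 of 21 lower by sign), which turned to 0.15 without ctrl mouse 5 and 0.25 without ctrl mice 5 and 9, with summed TPM of 117, 580, 752 and 136 in ctrl and 104, 203 and 111 in angII+VEGFC.

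Growth genes of the MYC family passed no threshold as a group. Mycn read 16.5, 12.9, 2.23 and 17.7 TPM in ctrl and 3.01, 6.64 and 8.25 TPM in angII+VEGFC, a log2 fold change of -1.03 with a 95% interval of -2.21 to 0.15. Ctrl mouse 9 had the lowest level of all 7 libraries, and within batch 1 the difference was 0.02. Without ctrl mouse 9 the log2 fold change of Mycn was -1.34 with an unadjusted limma p of 0.00945. Of 27 genes of the list 18 were higher by sign with a median of 0.08, and Srm, which encodes spermidine synthase, had an unadjusted p under 0.05 at 65.3 to 80.6 TPM in ctrl and 129, 93.6 and 92.2 TPM in angII+VEGFC. The 76 cytosolic ribosomal protein genes had a median of -0.04 with 0 at that limit. Vcl, which anchors actin at junctions, read 43.8 to 62.2 TPM in ctrl and 74.1 to 77.0 TPM in angII+VEGFC, and was the 1 gene at that limit among 24 junction and barrier genes. The Notch, Toll-like receptor, leukocyte adhesion, chemokine scavenger, oxidative stress, lipid and glycolysis lists had medians between -0.06 and 0.09 with 0 genes at an unadjusted p under 0.05. The angiopoietin and Tie list (9 genes) had a median of 0.13, with Tek at -0.02 and Angpt2 at 0.26.

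The transcripts encoded by the mitochondrial genome were lower by sign without exception. The mitochondrial genome encodes 13 proteins of the respiratory chain and ATP synthase, transcribed together from few promoters, so these genes are not independent of each other. All 13 were lower in angII+VEGFC, with a median log2 fold change of -0.84, and 8 of them had an unadjusted p under 0.05 beside 0.39% of all genes. mt-Co1, a catalytic subunit of cytochrome c oxidase, read 1478, 3209, 4954 and 1795 TPM in ctrl and 856, 1421 and 600 TPM in angII+VEGFC, a log2 fold change of -1.41 ± 0.39 (SE). mt-Atp6, a subunit of ATP synthase, read 1291, 2202, 3447 and 1563 TPM in ctrl and 1268, 1145 and 1001 TPM in angII+VEGFC, a log2 fold change of -0.73 ± 0.29. Summed over the 13 genes the level was 10317, 19311, 31784 and 12619 TPM in ctrl and 9811, 9270 and 7282 TPM in angII+VEGFC. The groups did not overlap, but ctrl mice 1 and 11 lay just above the treated mice, whereas ctrl mice 5 and 9 were far above them. All 13 stayed lower without ctrl mouse 5, without ctrl mouse 9 and without both, but the number at an unadjusted p under 0.05 was 0, 6 and 0 and the median was -0.53, -0.65 and -0.43. It was 1 of 13 without angII+VEGFC mouse 6 and 3 of 13 without mouse 8. Within batches the median was -1.08 in batch 1 and -0.80 in batch 2.

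Several abundant entries on chromosome 1 are nuclear copies of the same transcripts and were not counted as separate evidence. Gm29216 (GRCm38, chr1:24615706-24616197, minus strand) is annotated as an unprocessed pseudogene, and 479 of its 492 bases are identical without interruption to mt-Co1. Gm28437 matched mt-Co3 over all of its 783 bases and Gm10925 matched mt-Atp6 over all of its 678 bases, each with 0 mismatches. The first 60 bases of Gm29216 are shown with the stretch of mt-Co1 that lies opposite (chrM:6381-6440, plus strand, and chr1:24616138-24616197, minus strand), as GENCODE gives the transcripts, because the point where the copies become identical shows why their reads cannot be separated. Capitals mark the 6 bases that differ, and the sequences are identical after base 13.
mt-Co1: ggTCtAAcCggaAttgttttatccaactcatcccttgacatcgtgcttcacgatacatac
Gm29216: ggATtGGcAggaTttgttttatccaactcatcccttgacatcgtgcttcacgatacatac
Gm29216 read 2007, 3739, 6437 and 2399 TPM in ctrl and 1205, 1841 and 856 TPM in angII+VEGFC, in the same order across mice as mt-Co1.

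The nuclear genes of oxidative phosphorylation did not share this direction. Of 58 such genes 29 were higher and 29 lower by sign, the median log2 fold change was 0.00, and 0 had an unadjusted p under 0.05. Of the genes named by the rule as lower, which required no overlap between groups, Chchd10, a mitochondrial protein of the intermembrane space, read 29.7, 36.5, 41.3 and 27.9 TPM in ctrl and 17.4, 7.76 and 13.2 TPM in angII+VEGFC, a log2 fold change of -1.41 ± 0.46 (SE). Smim4, a small protein needed for complex III assembly, read 34.2, 21.97, 41.2 and 16.1 TPM in ctrl and 11.1, 7.97 and 8.26 TPM in angII+VEGFC. Dnajc30, a mitochondrial J-domain protein, read 19.0, 23.2, 17.2 and 29.7 TPM in ctrl and 14.8, 6.82 and 15.3 TPM in angII+VEGFC. The remaining genes of this direction beside mt-Co1, mt-Atp6 and Laptm5 were the scaffold gene Pdzd2 (log2 fold change -1.09), the ubiquitin ligase adaptor Klhl24 (-0.98), the Cdc42 effector Cdc42ep3 (-0.95), Ccdc28b (-0.88), the SOCS box gene Asb8 (-0.85) and Rps10-ps2 (-1.12), a ribosomal protein pseudogene.

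The smallest p of the whole comparison belonged to a ribosomal RNA entry, named here after its value was seen. CT010467.1 (chr17:39846353-39848827, minus strand) is annotated as rRNA and read 8948, 9644, 9824 and 8391 TPM in ctrl and 4092, 6255 and 3437 TPM in angII+VEGFC. Its log2 fold change was -1.03 ± 0.19 (SE) with an unadjusted limma p of 7.62e-05 and an adjusted p of 0.999973. The unadjusted p stayed under 0.05 in all 7 fits with 1 library left out. These fits are no separate support, because the entry was picked by its p in the same libraries. Gm10800, a predicted gene on chromosome 2 that was also named after its value was seen, was the opposite case, with 7032, 1118, 5852 and 15443 TPM in ctrl and 16915, 15103 and 14244 TPM in angII+VEGFC. Ctrl mouse 11 lay among the treated mice for Gm10800, and the log2 fold change was 1.88 ± 0.59, which was 0.51 with a limma p of 0.272 without ctrl mouse 5. Since TPM is a share of each library, such abundant entries take part of the total of every other gene.

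The same contrast was taken in heart LECs of the same 7 mice to ask whether the diaphragm values were particular to that tissue. In the heart 0 of 26803 genes had an adjusted p under 0.05 and 1325 (4.94%) an unadjusted p under 0.05. For the difference between tissues 0 of 31319 genes (0%) had an adjusted p under 0.05, 936 (2.99%) had an unadjusted p under 0.05, and the smallest adjusted p was 0.531. Prox1, Lyve1 and Flt4 gave like values in both tissues. The log2 fold change of Prox1 was 0.06 in the diaphragm and 0.09 in the heart, that of Lyve1 0.14 and 0.12, and that of Flt4 0.29 and 0.32. Pdpn stood at 0.35 and 0.11. Ccl21a stood at -0.23 and -0.45, and its 95% interval in the heart, -0.80 to -0.10, left 0 out. The tissue difference of Ccl21a was 0.14 ± 0.26 (SE). The difference between tissues was 0.01 ± 0.32 (SE) for Prox1 and -0.04 ± 0.21 for Lyve1. Serpina3n was higher by sign in both tissues, by 1.06 and 1.15, as were Lamc1 (0.57 and 0.60) and Ybx1 (0.59 and 0.44). Their 95% intervals in the heart all crossed 0, at -0.06 to 2.35, -0.05 to 1.25 and -0.02 to 0.89. The heart groups of Serpina3n and Lamc1 overlapped. The median log2 fold change over all genes in the heart was -0.13, and signs in the 2 tissues are not independent because the mice are the same. Of the 12 genes named as higher in the diaphragm, 10 were also higher by sign in the heart. Pglyrp1 (0.60 and -0.02) and Rpl27-ps3 (2.55 and -0.01) were not. Of the 12 named as lower, 6 were also lower in the heart, and the other 6, among them Smim4 (-1.38 and 0.48), Klhl24 (-0.98 and 0.37) and Cdc42ep3 (-0.95 and 0.24), were higher there.

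**Figure D4:**
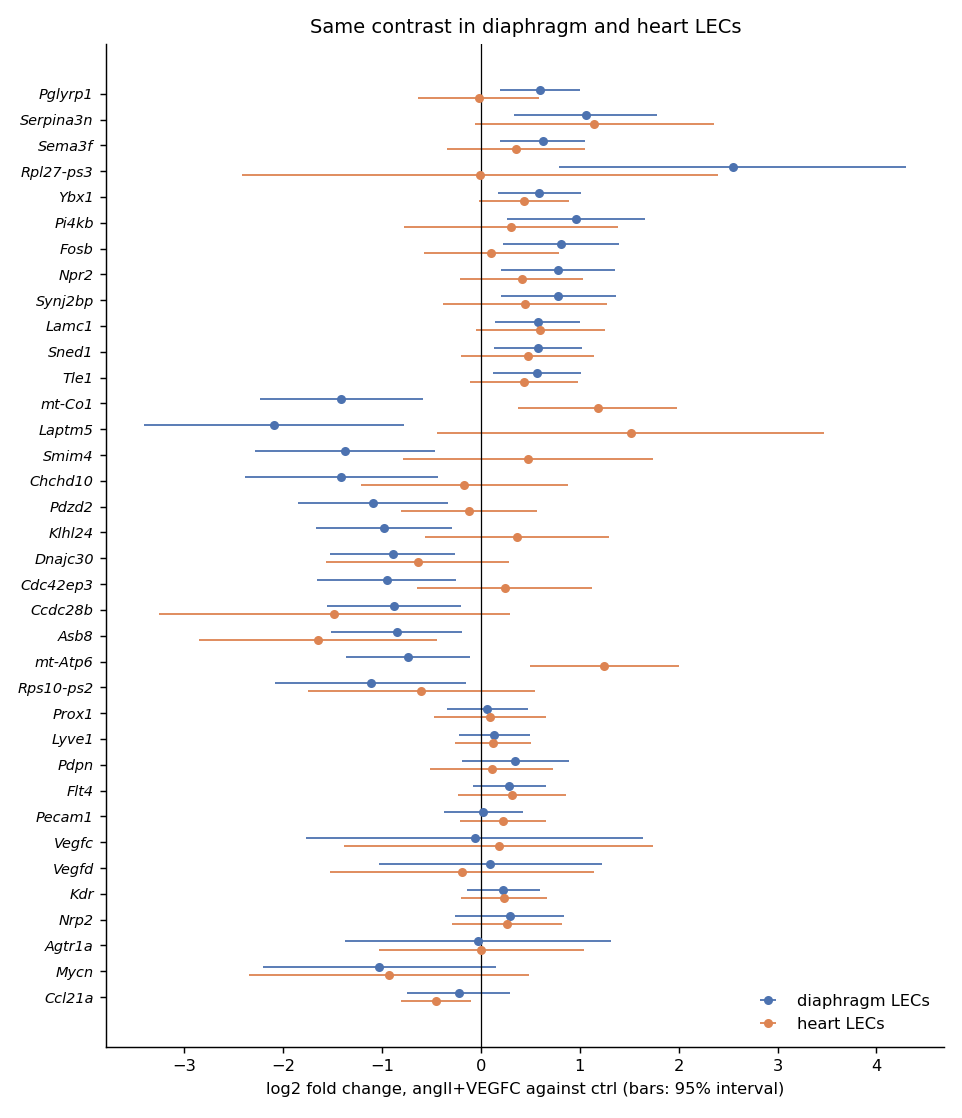
Log2 fold change of angII+VEGFC against ctrl with its 95% interval (horizontal axis) for 36 named genes in diaphragm LECs (blue) and heart LECs (orange). Most genes lie on the same side of 0 in both tissues or have intervals across 0, whereas mt-Co1 and mt-Atp6 lie below 0 in the diaphragm and above 0 in the heart.

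The mitochondrial transcripts had opposite signs in diaphragm and heart. All 13 were higher by sign in treated hearts. Of these, 11 had an unadjusted p under 0.05, beside 4.94% of all genes tested in the heart, in either direction. Their median log2 fold change was 1.12 in the heart against -0.84 in the diaphragm. Summed over the 13 genes, heart LECs held 26650, 14517, 28534 and 12965 TPM in ctrl mice 1, 5, 9 and 11 and 73709, 19927 and 50344 TPM in angII+VEGFC mice 2, 6 and 8. Mouse 6 lay within the ctrl range of the heart, and mice 2 and 8 lay above it. The difference between tissues ran from -3.97 to -1.20 log2 units with a median of -1.995, and all 13 had an unadjusted p under 0.05 beside 2.99% of all genes. For mt-Co1 it was -2.80 ± 0.58 (SE) with an adjusted limma p of 0.531, so no gene passed the threshold with all libraries. Without the heart library of mouse 6, 7 genes passed: mt-Atp6, mt-Co3, mt-Co1 and mt-Nd1 and the nuclear copies Gm29216, Gm28437 and Gm10925. The unprocessed pseudogene Gm2260, the other gene named for the tissue difference, was listed at 0 in all 3 treated diaphragm libraries and in ctrl mouse 9. The median of the macrophage markers also had opposite signs, at -1.73 in the diaphragm and 1.45 in the heart, but the markers were less uniform. Of 10 with values in both tissues, 8 were higher by sign in the heart, and Cd68 and Ptprc were lower there. In the heart 1 had an unadjusted p under 0.05, beside 4.94% of all genes. For the tissue difference 3 of 13 did, beside 2.99%, and 0 passed the adjusted threshold. The summed TPM of the macrophage markers in treated hearts was 382 in mouse 2, 42.2 in mouse 6 and 143 in mouse 8. Their part in the mitochondrial values was not tested.

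**Figure D5:**
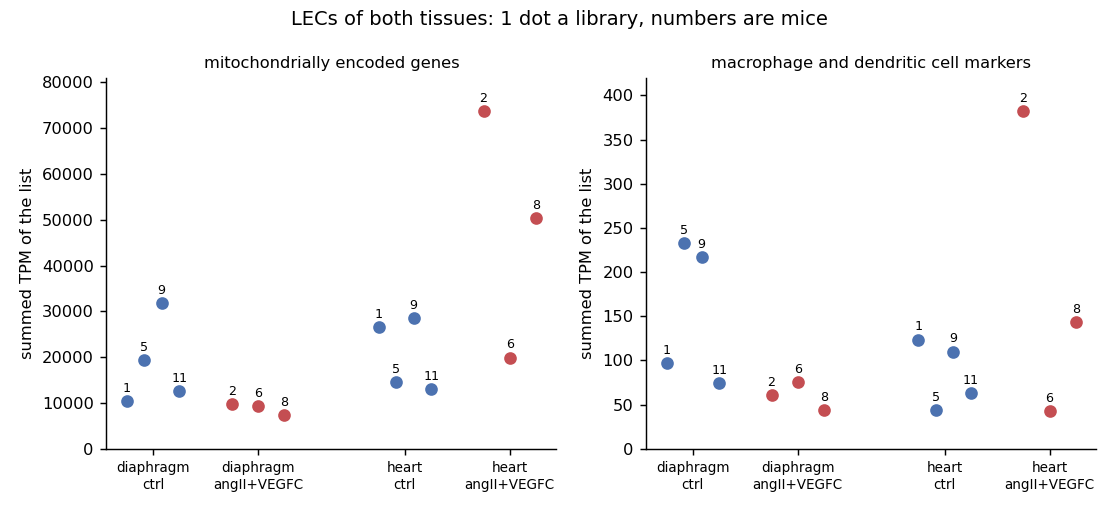
Summed TPM of the 13 mitochondrially encoded genes (left) and of the 16 macrophage and dendritic cell markers (right) in each LEC library, with the mouse number above each dot, ctrl in blue and angII+VEGFC in red. In the diaphragm the treated mice lie low, with 7282 to 9811 TPM of mitochondrial transcripts, and in the heart mice 2 and 8 lie high and mouse 6 does not.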

How the data were processed

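RNA from sorted diaphragm LECs was measured by RNA-seq. Per the study's methods, the authors made cDNA from low-input total RNA with the Smart-Seq kit and libraries with Nextera XT. Whether strand or single molecules were marked is not given in the sources used here. They aligned the reads to GRCm38 with STAR 2.5.3a (versions per the labels), quantified Ensembl genes with Salmon 0.12.0 and deposited TPM values per gene, 54752 in all, of which 54723 matched a symbol. TPM keeps no read count, so depth is unknown, no counting interval or detection floor is given, and count tests were not used. The authors' own tests used counts with age, batch and surrogate variables.

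Groups, mouse numbers, ages and batches came from the labels. Ages by label (8 to 16 months) differ from the weeks given in the study's methods, and the labels were used. Replicates are separate mice. Genes that reached 1 TPM in 3 or more of the 12 diaphragm LEC libraries were fitted as log2(TPM + 1) with limma 3.58.1 (R 4.3.3) and a variance trend. The 3 treatments were fitted together, with age and batch as covariates, and p-values were adjusted by Benjamini-Hochberg over all genes tested at a threshold of 0.05. A fold change on this scale understates the change of low genes. The tissue difference was the interaction of tissue and treatment over 24 LEC libraries. Same-numbered diaphragm and heart libraries come from the same mouse by label, and the deviations of the 7 pairs from their group means had a mean correlation of 0.0562 (-0.00916 between unlike mice). An alternative therefore took the mouse as a block. Values per library were compared by two-sided exact permutation tests over 35 assignments, whose smallest p is 0.0571, in Python 3.11.15 with scipy 1.17.1. Code was tested on simulated data, and figures were drawn with matplotlib 3.10.9. Gene positions came from GENCODE M21 (GRCm38), and copies were matched without gaps.

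Named genes were the 12 higher and 12 lower genes with the smallest p among those with a mean of at least 5 TPM, no overlap between groups and no predicted symbol, up to 4 members of each pathway list at an unadjusted p under 0.05, 12 genes of lymphatic, VEGF, angiotensin and MYC biology, and 5 genes for the tissue difference. No gene met the part of the rule on adjusted p. The libraries, the 37 gene lists (25 pathways, 2 quality and 10 cell type lists) and the rules were chosen with earlier results of these data known. Alternatives were another pseudocount, other filters, no covariates, 1 surrogate variable, the number of genes as covariate, quantile normalization, only the 7 libraries, each library left out, within-batch values, the mouse as a block and, chosen after seeing the data, ctrl mice 5 and 9 both left out. The result of a single gene that the naming rule selected is not reported here.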

Additional observations from a re-analysis of the deposited data

Results flagged for a closer look

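In 7 of 66 groups of 4 ctrl libraries 1 library lay far from the other 3 by Dixon's criterion, which chance meets in about 1 in 20 groups. Ctrl mouse 9 was the far library in 5 of them, with a summed TPM of 2539 for fibroblast markers, 394.7 for lymphocyte markers and 852.7 for pericyte and smooth muscle markers, the lowest Lyve1 level at 3150 TPM and the highest Klhl24 level at 43.9 TPM. Ctrl mouse 5 was the 1 ctrl library with Rpl27-ps3 above 0, at 6.10 TPM. Ctrl mouse 11 had the lowest Pdzd2 level at 14.6 TPM, which was still above all 3 angII+VEGFC libraries.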

How the results depend on the processing

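The count of genes at an adjusted p under 0.05 was 0 in all 16 alternatives. Genes at an unadjusted p under 0.05, 314 with the reported settings, numbered 695 with 1 surrogate variable, 627 without a filter, 661 with only the 7 libraries, 503 after quantile normalization, 183 with the stricter filter and 132 to 473 with each library left out, lowest without angII+VEGFC mouse 6 and highest without mouse 8. The median log2 fold change over all genes was 0.05, -0.09 without ctrl mouse 5 and -0.10 without ctrl mice 5 and 9. No gene named for its p changed sign, which for the 12 higher and 12 lower genes without overlap was nearly fixed by that rule. Estimates near 0 did: Vegfc to 0.13 with the number of genes as covariate, 0.077 with a pseudocount of 0.1 and 0.76 without ctrl mice 5 and 9; Prox1 to -0.14 without ctrl mice 5 and 9; Pecam1 to -0.017 with only the 7 libraries and -0.025 after quantile normalization; Agtr1a to 0.022 with only the 7 libraries; Vegfd to -0.0014 with a pseudocount of 0.1 and -0.036 after quantile normalization; and Ccl21a to 0.030 after quantile normalization. With each library left out the range was -0.12 to 0.17 for Prox1, -0.017 to 0.23 for Lyve1, -0.066 to 0.20 for Pecam1, -0.43 to 0.66 for Vegfc, -0.51 to 0.71 for Agtr1a and -0.19 to 0.44 for Vegfd. The cause was not tested.

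For the tissue difference, genes at the adjusted threshold numbered 0 to 7 with each library left out: 7 without the heart library of angII+VEGFC mouse 6, 1 (Gm20503) without that of ctrl mouse 1 and 0 otherwise. With the mouse as a fixed or random replicate block the count stayed 0, with 1386 and 1235 genes at an unadjusted p under 0.05 against 936 without a block, and all 13 mitochondrial genes kept an unadjusted p under 0.05 in both. Unadjusted counts with each library left out ran from 650 to 1417. TPM hides depth, and every interval rests on 3 treated mice and on a spread pooled over the 12 or 24 libraries of its model.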
